A study of Mus musculus with 3 samples.

Results

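Mitochondrial respiration is carried out by protein complexes of the inner mitochondrial membrane. Complex I takes electrons from NADH, complex III passes them to cytochrome c, and complex IV hands them to oxygen. These 3 complexes pump protons, and complex V, the ATP synthase, uses the proton gradient to make ATP. Most subunits are encoded in the nucleus and imported, while a small core is encoded by mitochondrial DNA, so each complex is built from transcripts of both genomes. In the mouse embryo, respiration is known to increase towards the blastocyst stage, where the trophectoderm is known for active mitochondria.

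The genes described here are the subunit genes of complexes I, III, IV and V. They were chosen by symbol, as all genes whose name starts with Nduf (without the Ndufaf assembly factors), Uqcr, Cox4i, Cox5, Cox6, Cox7, Cox8 or Atp5, together with the protein-coding genes of mitochondrial DNA. This gave 95 of the 32285 genes in the files, of which 82 are nuclear and 13 mitochondrial. Complex I has 39 nuclear and 7 mitochondrial members, complex III has 8 and 1, complex IV has 18 and 3, and complex V has 17 and 2. Ndufa4 and Ndufa4l2 stand with complex I by name, although the Ndufa4 protein is now known as a complex IV subunit. Ndufb1-ps is also counted with complex I by its symbol, although its annotated type is a noncoding RNA (GENCODE vM21).

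The genes were measured by single-cell RNA-seq in mouse blastoids, stem cell aggregates that model the blastocyst. They were made from E14 embryonic stem cells grown with LIF and 10 µM T0901317, an agonist of liver X receptors such as the product of Nr1h2. About 5 cells were seeded per microwell. They were kept in 12.5 ng/mL rhFGF4, 0.5 µg/mL heparin and 3 µM CHIR99021, a GSK3 inhibitor. The ROCK inhibitor Y-27632 (2 µM) was present on the first day, and 5 ng/mL BMP4 and 0.5 µM A83-01, an inhibitor of TGF-beta family receptors, were present afterwards. They were hand-picked on day 5 and gave 3 libraries, Type I, Type II and Type III. The labels do not say how the types differ. No library without T0901317 is analysed here.

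The libraries held 6813, 9265 and 2310 barcodes and between 25443474 and 106445641 UMIs. Barcodes with at least 10000 UMIs (unique molecular identifiers, each counting 1 captured transcript) and at most 20% mitochondrial UMIs numbered 1405, 1992 and 272. They were put into states by marker sums in CPM (UMIs per 1000000 UMIs). A barcode with Gata6, Sox17 and Gata4 summing to at least 100 CPM was called primitive endoderm (PrE). Of the others, Krt8, Krt18 and Krt19 at 800 CPM or more gave trophectoderm (TE), and of the rest Pou5f1 at 150 CPM or more gave epiblast. In the order Type I, Type II and Type III there were 673, 877 and 63 PrE, 242, 330 and 72 TE, and 351, 587 and 121 epiblast barcodes. None of the state genes is a respiratory chain gene.

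Other markers were compared with the state labels. All 8 epiblast markers were highest in epiblast and all 8 PrE markers in PrE. The TE sums of Type I and Type II still carried 343 and 442 CPM of the 8 PrE markers, against 76.6 CPM in TE of Type III. In PrE these markers summed to 2985, 3224 and 3677 CPM. Of 8 TE markers 6 were highest in TE, while Cdx2 and Elf3 had their highest mean in PrE, though Elf3 was higher in TE in Type I and Type II and Cdx2 in Type III. Most PrE barcodes, 530, 680 and 48, also met the TE or epiblast rule. The PrE sum of Type III carried 28.2 CPM of 4 genes of the 2-cell stage and 23.9 CPM of 4 blood or endothelial genes, against at most 0.572 and 3.04 CPM in PrE of the other libraries. The 23.9 CPM came from Cdh5 (11.2) and Kdr (12.7), with 0 CPM of Hbb-bh1 and Hba-x. In Type I, Type II and Type III, 4 mesoderm genes summed to 29.0, 29.0 and 27.9 CPM in epiblast, 19.1, 36.9 and 1.93 CPM in TE and 3.10, 1.87 and 0.163 CPM in PrE. Libraries shared barcode sequences: 153 of the 256 Type III barcodes in a state were also found in another library, against 55 of 1266 in Type I and 26 of 1794 in Type II. Only 1 barcode was in a state in 2 libraries. What these features contribute to the results was not tested beyond leaving the barcodes out, as given below.

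Counts were summed per library and state, and states were compared within libraries, so the 3 types stand in for replicates. Nothing in the labels says that they are separate cultures. The 9 sums held 6146328 to 40327875 UMIs. Of the 95 genes 91 had enough counts to be tested. Those left out were Cox6a2 with 3 UMIs, Cox7b2 with 89, Cox8b with 0 and Cox8c with 19, and these are paralogs known from muscle, heart or testis. The 3 comparisons share sums, since each state enters 2 of them. Changes in the amount of a transcript per cell cannot be told apart from changes in the rest of the RNA, because every level is relative to the UMIs of the same sum.

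Respiratory chain transcripts took the smallest share in TE and, for most genes, the largest in PrE. Nuclear members summed to 30510, 28954 and 27318 CPM of nuclear-gene UMIs in PrE of Type I, II and III. The same sum was 22547, 22220 and 18739 in TE. In epiblast it was 25957, 25063 and 24218. The ranges of the 3 states did not overlap, with means of 28927 ± 1596, 21168 ± 2110 and 25079 ± 870 (SD, n = 3 libraries). The order PrE, epiblast, TE held for the means of each complex. Complex I summed to 9017 ± 625 in PrE, 8090 ± 321 in epiblast and 6801 ± 693 in TE. For complex I, PrE lay above epiblast in each library, but their ranges overlapped (8363 in PrE of Type III, 8394 in epiblast of Type I). Complex III, the quinol to cytochrome c step, summed to 2985 ± 210, 2181 ± 126 and 1977 ± 242, and epiblast lay above TE in each library although their ranges overlapped. Complex IV summed to 8473 ± 542, 7229 ± 266 and 6013 ± 674, and complex V to 8453 ± 251, 7580 ± 163 and 6378 ± 505. Gene by gene, 59 of the 78 nuclear members tested had their lowest mean CPM in TE and 51 their highest in PrE. These counts were not made for all genes. In PrE over epiblast the shift in CPM was shared by genes at large. With plain library totals the median log2 change there was 0.155 for nuclear members and 0.172 for all genes tested. In TE over epiblast these medians were -0.22 and 0.31.

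Mitochondrial DNA transcripts were also highest in PrE. They made up 4.79%, 5.63% and 5.40% of UMIs in PrE, 3.78%, 4.18% and 3.997% in TE, and 3.84%, 4.25% and 4.51% in epiblast. In PrE of Type I the exact 95% binomial interval was 4.779% to 4.792%, so counting error was small beside the differences between libraries. PrE lay above TE and epiblast in each library, and TE lay below epiblast in each library, although the ranges of TE and epiblast overlapped. These shares are bounded by the filter at 20%. All 13 mitochondrial genes had their highest mean CPM in PrE, and 10 had their lowest in TE. The ratio of mitochondrial to nuclear member UMIs was 1.65, 2.06 and 2.09 in PrE, 1.74, 1.96 and 2.22 in TE and 1.54, 1.77 and 1.95 in epiblast. PrE and TE did not keep 1 order in this ratio, while epiblast was the lowest in every library. By complex, the mean of mt-Atp6 and mt-Atp8 together was 8043 ± 529 CPM in TE and 7675 ± 633 CPM in epiblast, the reverse of the other complexes, and TE lay above epiblast in each library although their ranges overlapped. The level of mt-Atp6 is uncertain, because windows of its transcript end also occur in other transcripts.

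**Figure D1:**
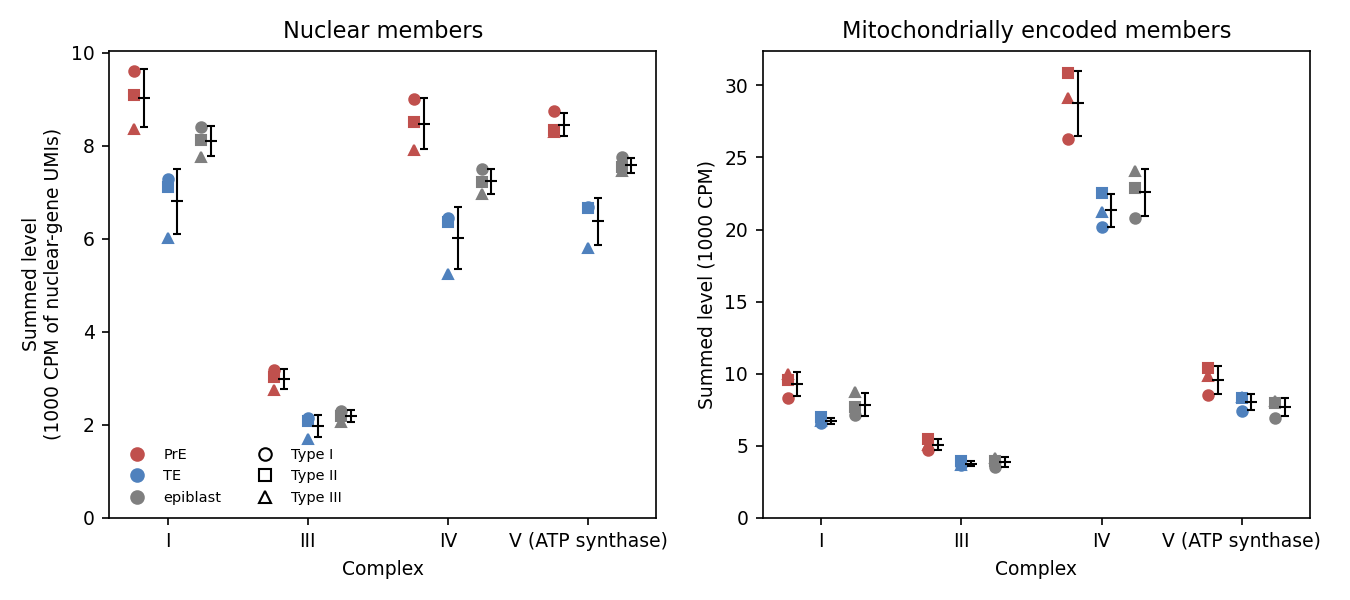
Summed level of each complex by state, for nuclear members (left, in 1000 CPM of nuclear-gene UMIs) and mitochondrially encoded members (right, in 1000 CPM). Symbols are the 3 libraries and black bars the mean ± SD (n = 3); the PrE mean is the highest in every group, and nuclear complex I runs from 6801 ± 693 in TE to 9017 ± 625 in PrE.

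Between TE and epiblast, nearly the whole respiratory chain was lower in TE. With edgeR's quasi-likelihood test and Benjamini-Hochberg adjustment over 13502 genes at 0.05, 83 of the 91 genes were lower in TE and 0 were higher. Of all genes tested, 28.3% were lower and 30.8% higher. All 91 fold changes were below 0, 0 genes were higher at an unadjusted p under 0.05, and DESeq2 also called 0 higher. The median log2 change was -0.51 for the 78 nuclear and -0.41 for the 13 mitochondrial members, against 0.02 for all genes. Nuclear genes called lower numbered 38 of 39 in complex I, 5 of 8 in complex III, 12 of 14 in complex IV and 15 of 17 in complex V. The size of the difference depends on scaling. TMM scaling sets the bulk of genes near 0, and with plain library totals the median over all genes moved to 0.31, the nuclear median to -0.22 and the mitochondrial median to -0.12. Then 56 members were lower and 3 higher, namely Atp5d, Uqcrc2 and Uqcrfs1. Without barcodes shared between libraries 75 were lower and 0 higher, with 25 TE and 59 epiblast barcodes left in Type III. Relative to the median over all genes, the nuclear members lay 0.53 lower with plain totals and 0.54 lower with TMM. In CPM without scaling, the libraries of the 2 states did not overlap for 39 nuclear members that were lower in TE and 2 that were higher, against 16.8% and 46.3% of all genes. Of the 13 mitochondrial genes, 2 were lower in this way and 0 higher.

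Atp5g1, which encodes the c-ring subunit of the ATP synthase, was among the clearest of these. It is on chromosome 11 at 96068852 to 96075670 (GRCm38, GENCODE vM21). Its levels were 268, 288 and 186 CPM in TE and 497, 511 and 427 CPM in epiblast. All TE libraries lay below all epiblast libraries, with a log2 change of -1.25 (adjusted p = 6.93e-06, edgeR quasi-likelihood test). Of the 50-base windows in its transcript ends, 35.96% also occur in transcripts of other genes, so its level is uncertain. Cox6b2, a complex IV subunit best known from testis, had 68.7, 75.2 and 75.0 CPM in TE and 110, 112 and 106 CPM in epiblast. These did not overlap either, at -0.88 (adjusted p = 3.22e-06, edgeR quasi-likelihood test). Ndufa7, an accessory subunit of complex I, had 436, 415 and 385 CPM in TE and 633, 610 and 567 CPM in epiblast, a log2 change of -0.84. Uqcr10, a small subunit of complex III, fell by 0.78 on the log2 scale (adjusted p = 2.67e-05, edgeR quasi-likelihood test) and Ndufb5 of complex I by 0.90.

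The 8 nuclear members that were not called between TE and epiblast came from all 4 complexes. Uqcrc2, a core protein of complex III, and Uqcrfs1, its Rieske iron-sulfur protein, changed by -0.02 each and were called in none of the 3 comparisons. Atp5d, the delta subunit of the ATP synthase, had 348, 374 and 275 CPM in TE and 295, 304 and 259 CPM in epiblast, which overlapped, with a log2 change of -0.08 (adjusted p = 0.378, edgeR quasi-likelihood test).

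Between PrE and TE, most respiratory chain genes were higher in PrE. The edgeR test called 79 of the 91 genes higher in PrE and 3 lower (Ndufa4l2, Cox4i2 and Cox7a2l), while 30.9% and 29.8% of all genes were called in these directions. The median log2 change was 0.55 for nuclear and 0.60 for mitochondrial members, against 0.0016 for all genes. By library the nuclear median was 0.51, 0.46 and 0.73. Nuclear genes called higher numbered 33 of 39 in complex I, 6 of 8 in complex III, 12 of 14 in complex IV and 15 of 17 in complex V, and all 13 mitochondrial genes were higher. Without TMM 74 were higher and 5 lower, and without barcodes shared between libraries 75 and 2. Leaving those barcodes out left 19 PrE and 25 TE barcodes in Type III. The CPM of the 2 states did not overlap for 54 nuclear and 9 mitochondrial members that were higher in PrE, against 25.0% of all genes, and for 4 nuclear members that were lower, against 36.9%.

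Cox7a1, the complex IV subunit form known from heart and muscle, showed the largest rise in PrE. It lies on chromosome 7 at 30184144 to 30186078 (GRCm38). Its levels were 38.8, 37.8 and 43.0 CPM in PrE, 12.1, 12.7 and 14.6 CPM in TE and 12.6, 10.7 and 16.7 CPM in epiblast. PrE stood apart in every library, while TE and epiblast overlapped. The log2 change was 1.75 over TE (SE 0.103, adjusted p = 9.11e-07) and 1.49 over epiblast (SE 0.0984, adjusted p = 5.02e-07) in edgeR's quasi-likelihood test.

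Uqcrq, a small subunit of complex III on chromosome 11 at 53427922 to 53430831, had 484, 458 and 467 CPM in PrE, 244, 236 and 173 CPM in TE and 286, 252 and 225 CPM in epiblast. PrE was above every other sum, and TE and epiblast overlapped. It was higher in PrE by 1.27 over TE (adjusted p = 5.51e-06) and by 0.76 over epiblast (adjusted p = 8.74e-05) in edgeR's quasi-likelihood test. Its neighbour in the complex, Uqcr11, was higher by 1.06 and 0.48. Ndufa1, an X-linked accessory subunit of complex I, had 166, 138 and 162 CPM in PrE and 102, 82.5 and 79.7 CPM in TE, which did not overlap, with a log2 change of 0.96. Atp5k, which encodes a subunit that joins ATP synthase dimers, was higher in PrE by 1.05 (adjusted p = 1.49e-05, edgeR quasi-likelihood test).

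PrE and epiblast did not differ in 1 direction. Of the 91 genes 33 were higher and 21 lower in PrE, beside 38.2% and 36.1% of all genes, and with TMM scaling both shares of the members were below these. The median was 0.02 for nuclear members and 0.14 for mitochondrial members, against 0.03 for all genes. Complex III had 4 of 8 nuclear genes higher and 0 lower. Complex I had 12 higher and 12 lower, complex IV 6 and 5, and complex V 5 and 4. These counts moved with the barcodes and libraries used. Members higher in PrE numbered 17 without Type I, 13 without Type II and 43 without Type III, 14 without the library block, 18 with barcodes thinned to 10000 UMIs, 19 with barcodes that met only 1 state rule, and 21 without barcodes shared between libraries. Those lower numbered 14 without Type I, 13 without Type II, 24 without Type III, 15 without the block, 28 with thinned barcodes, 22 with 1 rule only and 23 without shared barcodes. The larger of the 2 counts was therefore the lower one with thinned barcodes, with 1 rule only, without shared barcodes and without the block. With 1 rule only, PrE held 143, 197 and 15 barcodes in Type I, Type II and Type III. Without shared barcodes, PrE of Type III held 19. With plain library totals 53 were higher and 15 lower, beside 43.75% and 30.74% of all genes, so the share of members called higher was then above that of all genes, and the median of all genes moved to 0.17. In CPM the libraries did not overlap for 35 nuclear members that were higher and 12 that were lower in PrE, beside 43.7% and 29.7% of all genes.

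**Figure D2:**
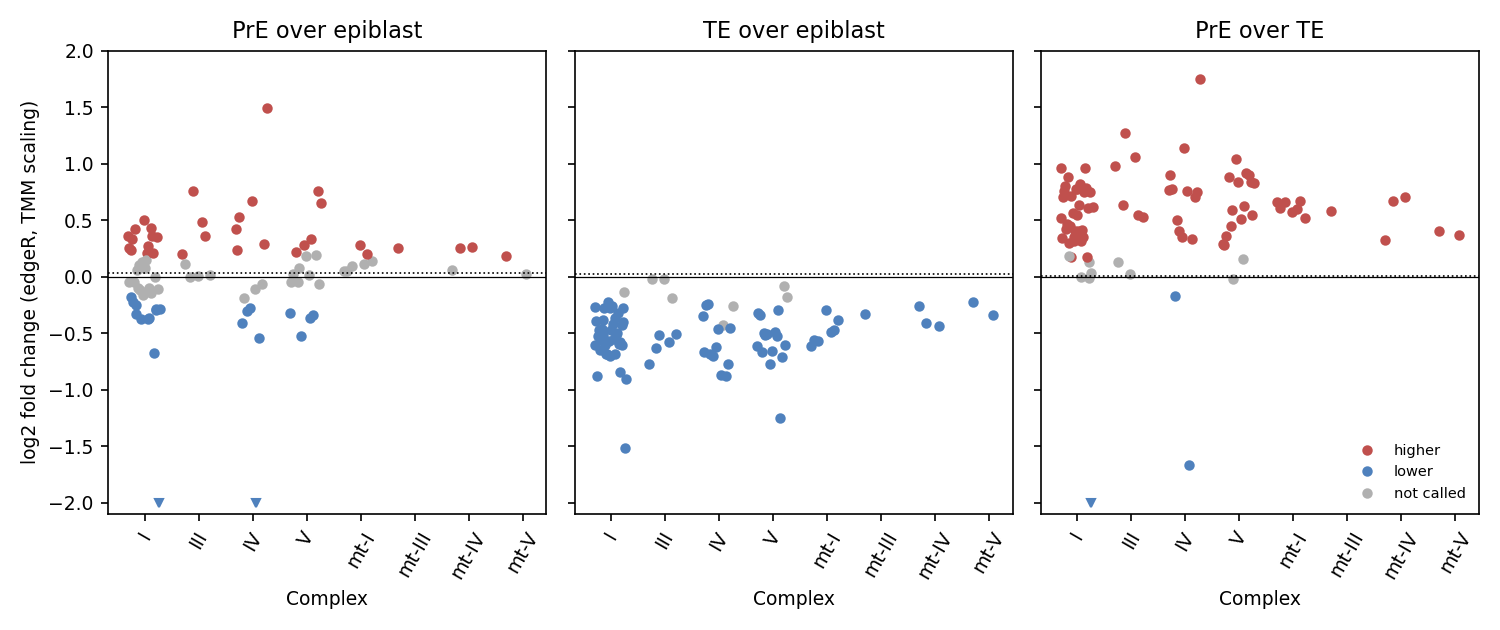
Log2 fold change (edgeR, TMM scaling) of each gene tested, by complex, with nuclear members on the left of each panel and mitochondrially encoded members (mt-) on the right. Red and blue mark genes called higher and lower, grey those not called, the dotted line the median of all genes, and triangles values below the axis; TE over epiblast has 83 genes lower and 0 higher, PrE over TE 79 higher and 3 lower.

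Among the 91 genes, the largest difference was that of Ndufa4l2, a paralog of Ndufa4 known as a hypoxia-induced gene, on chromosome 10 at 127514967 to 127517154. It had 0.347, 1.90 and 1.95 CPM in PrE, 6.02, 15.7 and 13.5 CPM in TE and 16.6, 32.1 and 32.4 CPM in epiblast. The 3 states did not overlap, and in each library the order was epiblast, TE, PrE. The log2 change was -4.61 in PrE over epiblast (SE 0.209, adjusted p = 5.37e-08), -1.52 in TE over epiblast (adjusted p = 3.95e-05) and -3.09 in PrE over TE (adjusted p = 3.17e-06) in edgeR's quasi-likelihood test. Ndufa4 itself had 1015, 957 and 872 CPM in PrE and 872, 828 and 704 CPM in epiblast, which overlapped, and was not called between them (0.11). Its change in TE was -0.61 over epiblast.

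In complex I, Ndufa13, also known as GRIM-19, had 568, 547 and 447 CPM in PrE, 363, 362 and 288 CPM in TE and 347, 337 and 314 CPM in epiblast. It was above all others in PrE, at 0.50 over epiblast (SE 0.0759, adjusted p = 0.000176, edgeR quasi-likelihood test). Ndufa7 went the other way, with 463, 416 and 374 CPM in PrE, which was 0.67 below epiblast on the log2 scale without overlap. Among complex V genes, Atp5d was the most raised, with 570, 559 and 470 CPM in PrE against the epiblast values above, a log2 change of 0.76 (adjusted p = 9.12e-06, edgeR quasi-likelihood test).

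In families with alternative subunit forms, the share of each form differed among states. These shares are given without a test. The c-ring of the ATP synthase is encoded by Atp5g1, Atp5g2 and Atp5g3, which make the same mature protein. Atp5g3 held 26.1% ± 1.78 of the family's UMIs in PrE, 19.8% ± 0.713 in TE and 14.2% ± 1.68 in epiblast (SD, n = 3 libraries). Its levels were 344, 316 and 348 CPM in PrE, 219, 218 and 193 CPM in TE, and 192, 182 and 209 CPM in epiblast. PrE stood apart, at 0.65 over epiblast (adjusted p = 0.000122, edgeR quasi-likelihood test) and 0.83 over TE, while TE and epiblast overlapped (-0.18, not called). Atp5g2 was lower in PrE than in epiblast by 0.53 on the log2 scale, with 583, 530 and 502 against 721, 725 and 666 CPM, and held the largest share in TE, 57.2% ± 2.13. Atp5g1 was lowest in TE in share too, at 23.0% ± 2.85 against 32.2% ± 1.37 in PrE and 34.7% ± 1.67 in epiblast. Of the end windows of Atp5g2, 55.48% occur in other transcripts, against 0 for Atp5g3, so shares that hold Atp5g1 or Atp5g2 are uncertain.

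In complex IV, Cox7a1 made up 7.75% ± 1.28 of Cox7a1 and Cox7a2 UMIs in PrE, 4.13% ± 1.21 in TE and 2.79% ± 0.737 in epiblast. Cox7a2, the form found in most tissues, was not called between PrE and epiblast (-0.11) and was lower in TE than in epiblast by 0.87 on the log2 scale. Cox7a2l, known as a factor of respiratory supercomplexes, had 243, 273 and 265 CPM in PrE and 304, 325 and 315 CPM in epiblast, a log2 change of -0.41 (adjusted p = 0.000283, edgeR quasi-likelihood test). It was also lower in PrE than in TE (-0.18, adjusted p = 0.0449 in the same test), a call that was lost in 9 alternatives. These include leaving out Type I (-0.11, adjusted p = 0.436), Type II (-0.16, adjusted p = 0.269) and shared barcodes (-0.12, adjusted p = 0.439). The others were no filter (adjusted p = 0.288), thinned barcodes (0.186), no block (0.123), 1 rule only (0.11), no deepest barcodes (0.0874) and at most 10% mitochondrial UMIs (0.0599). Cox6b2 held 22.75% ± 0.886 of Cox6b1 and Cox6b2 UMIs in epiblast, 16.2% ± 2.90 in TE and 12.35% ± 0.637 in PrE, and the 3 states did not overlap in this share.

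Cox6a1, the only Cox6a form tested, had 369, 326 and 328 CPM in PrE, 196, 177 and 145 CPM in TE and 199, 183 and 200.5 CPM in epiblast. It was higher in PrE by 0.67 over epiblast (adjusted p = 0.000179) and 1.13 over TE in edgeR's quasi-likelihood test, with no overlap. Cox4i1, a large nuclear subunit of complex IV, was likewise higher in PrE by 0.43 over epiblast and 0.77 over TE. Cox4i2, its form known from lung and low oxygen, had 0.942, 0.780 and 1.46 CPM in PrE, 2.47, 4.36 and 3.21 CPM in TE and 3.15, 3.88 and 4.44 CPM in epiblast. It was lower in PrE by 2.09 on the log2 scale against epiblast, with TE and epiblast overlapping. Cox8a was called higher in PrE than in epiblast (0.23), a call that was lost in 8 alternatives, including thinned barcodes (0.11, adjusted p = 0.361 in the same test), no block (adjusted p = 0.183), barcodes of 1 rule only (0.0935), DESeq2 size factors (0.0508) and leaving out the deepest barcodes (0.0673). The others were leaving out Type I (0.19, adjusted p = 0.2 in the same test), Type II (0.24, adjusted p = 0.133) and shared barcodes (0.08, adjusted p = 0.621). Cox7b, which is X-linked, was not called there (-0.06).

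**Figure D3:**
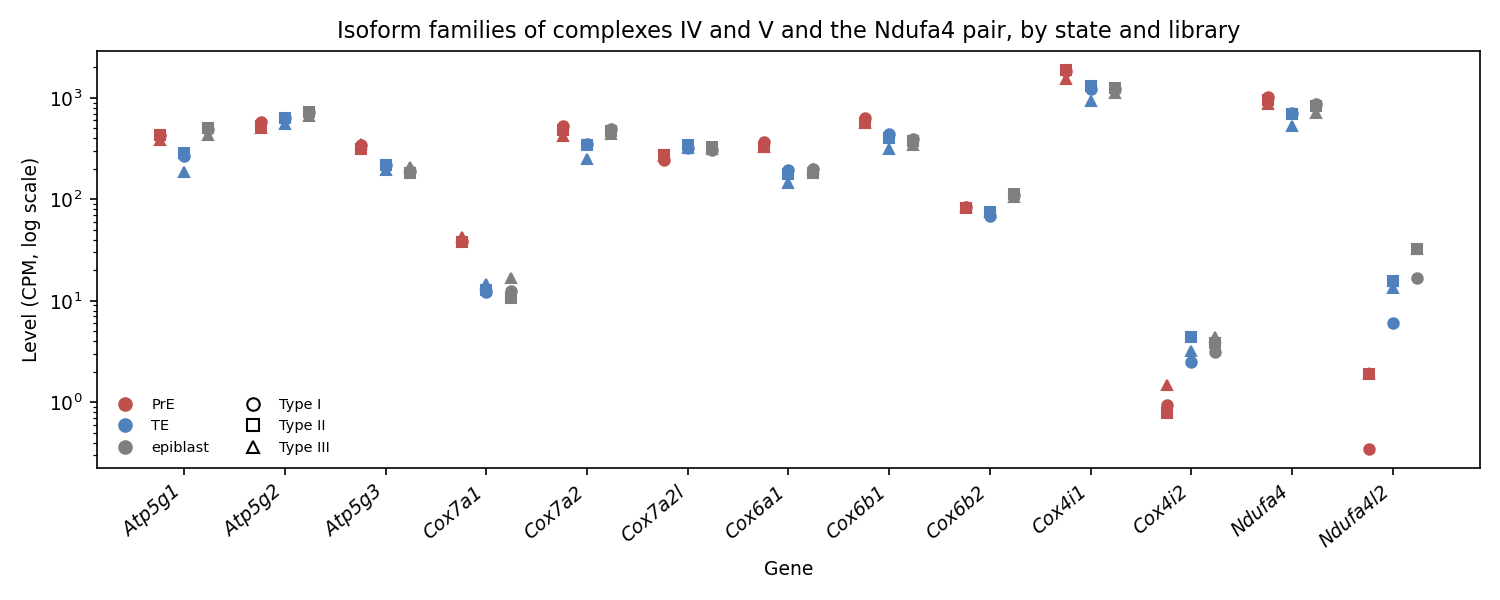
Level in CPM (log scale) of each gene of the isoform families, by state (colour) and library (symbol). Ndufa4l2 lies between 16.6 and 32.4 CPM in epiblast and at 1.95 CPM or below in PrE, while Cox7a1 and Atp5g3 lie highest in PrE; heights are not comparable between genes, since the counts are not per length.

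Promoter sequence was read for 65 of the 82 nuclear genes in RefSeq windows of 300 bases (250 before to 50 after the start, GRCm38.p6, 70 windows). The letters GCGCA, any base and GCGC, a core of the motif of NRF1, a regulator of respiratory genes, were found on either strand in 16 windows or 22.9%, against 9.65% of the 13363 windows of genes tested and 4.60% of all 32851. AAGATGGCG, the YY1 motif, was in 10% of member windows against 2.86% and 1.40%. CCGGAAG, bound by ETS factors, was in 21.4% against 17.0% and 8.86%. A match is a description of letters and not a binding site. The 250 bases upstream of 3 isoform genes that were higher in PrE than in both other states are shown 5′ to 3′ on the gene's strand, with matches in capitals, because genes with the same direction of change differed in these letters. Cox6a1 (chr5:115348959-115349208, minus strand) has 2 NRF1 matches and 1 ETS match. Atp5g3 (chr2:73911327-73911576, minus strand) has none in this stretch and an NRF1 match that begins 12 bases after the start. Cox7a1 (chr7:30183921-30184170, plus strand) has none in the window.
Cox6a1: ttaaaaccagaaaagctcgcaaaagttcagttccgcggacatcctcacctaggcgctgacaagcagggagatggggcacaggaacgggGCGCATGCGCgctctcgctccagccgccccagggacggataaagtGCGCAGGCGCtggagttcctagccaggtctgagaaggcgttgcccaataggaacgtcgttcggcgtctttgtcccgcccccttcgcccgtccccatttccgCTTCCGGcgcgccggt
Atp5g3: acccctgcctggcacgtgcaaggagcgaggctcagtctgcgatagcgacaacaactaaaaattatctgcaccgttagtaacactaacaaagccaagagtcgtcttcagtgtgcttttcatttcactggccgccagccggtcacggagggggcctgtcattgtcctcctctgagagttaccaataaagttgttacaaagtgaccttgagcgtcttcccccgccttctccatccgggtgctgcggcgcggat
Cox7a1: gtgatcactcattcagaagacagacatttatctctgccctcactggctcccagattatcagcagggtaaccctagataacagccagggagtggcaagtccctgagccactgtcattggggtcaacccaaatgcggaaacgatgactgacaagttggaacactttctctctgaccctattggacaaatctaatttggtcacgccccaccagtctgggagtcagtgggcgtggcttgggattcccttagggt

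With TMM scaling the mitochondrial genes moved together in 2 comparisons and less so in the third. All 13 were then called lower in TE than in epiblast and higher in PrE than in TE. With plain library totals 7 were called lower in TE than in epiblast, and 13 were called higher in PrE than in TE. In PrE over TE the log2 changes ran from 0.32 for mt-Co1 to 0.70 for mt-Co2. mt-Co3, a core subunit of complex IV, had 11173, 13617 and 12328 CPM in PrE, 8116, 9319 and 8468 CPM in TE and 8450, 9631 and 10072 CPM in epiblast. PrE stood apart, and TE and epiblast overlapped. mt-Co1, the catalytic subunit, had 6709, 7092 and 8032 CPM in PrE, 5981, 6315 and 7104 CPM in TE and 5915, 6039 and 7032 CPM in epiblast. These overlapped in every pair of states, and within each library PrE was the highest. In these CPM mt-Co1 lay higher in TE than in epiblast in each library, the reverse of its change with TMM scaling.

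In PrE over epiblast 6 of the 13 were called higher, namely mt-Nd4l (0.28), mt-Co2 (0.26), mt-Co3 (0.26), mt-Cytb (0.25), mt-Nd6 (0.20) and mt-Atp6 (0.18), beside 38.2% of all genes. All 13 fold changes were above 0, and with plain library totals all 13 were called higher. mt-Cytb is the mitochondrial subunit of complex III, and mt-Atp6 forms part of the proton path of the ATP synthase. Without Type II none of these 6 calls held, with adjusted p from 0.109 for mt-Nd4l to 0.225 for mt-Nd6 in edgeR's quasi-likelihood test. The log2 changes were then 0.245 (mt-Nd4l), 0.215 (mt-Co2), 0.20 (mt-Co3), 0.20 (mt-Cytb), 0.17 (mt-Nd6) and 0.15 (mt-Atp6), in the same direction. Without Type III, mt-Nd2, mt-Co1, mt-Nd3 and mt-Nd4 were called as well. Without Type I 4 of the 6 were lost, with adjusted p in the same edgeR test of 0.0546 for mt-Atp6, 0.0613 for mt-Cytb, 0.102 for mt-Nd4l and 0.139 for mt-Nd6. With barcodes meeting 1 state rule only, mt-Atp6 (adjusted p = 0.503), mt-Cytb (0.309), mt-Co2 (0.143), mt-Nd4l (0.112) and mt-Co3 (0.0831) were lost in this test. Only the mt-Nd6 call held there. Without the library block mt-Nd4l (0.402), mt-Nd6 (0.391), mt-Atp6 (0.117) and mt-Co2 (0.0647) were lost, while mt-Co3 and mt-Cytb held. mt-Nd1, a core subunit of complex I, was not called (0.05) but was lower in TE than in epiblast by 0.61 on the log2 scale. In TE over epiblast mt-Co1 (-0.26) and mt-Atp6 (-0.22) had the opposite sign with plain library totals (0.03 and 0.07, not called). Without shared barcodes mt-Co1 (adjusted p = 0.268), mt-Atp6 (0.795), mt-Atp8 (0.384), mt-Co2 (0.0518), mt-Cytb (0.304), mt-Nd4 (0.0704) and mt-Nd4l (0.539) were no longer called in that comparison by the same test, which then had 25 TE and 59 epiblast barcodes in Type III. For 7 mitochondrial genes at least 20% of end windows occur in another annotated transcript, so their levels and shares are uncertain. These are mt-Nd2, mt-Co1, mt-Co2, mt-Atp6, mt-Co3, mt-Nd3 and mt-Nd4l.

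Within the mitochondrial transcripts, mt-Co1 took 13.8% ± 1.15 of mitochondrial UMIs in PrE, 16.2% ± 1.38 in TE and 15.1% ± 0.740 in epiblast, and this order, with TE the highest, held in each library. mt-Co3 took 23.5% ± 0.683 of mitochondrial UMIs in PrE, 21.6% ± 0.579 in TE and 22.3% ± 0.346 in epiblast. mt-Atp6 took 17.9% ± 0.403, 19.8% ± 0.666 and 17.95% ± 0.461, so its share was the highest in TE. Over barcodes thinned to 10000 UMIs, the Spearman correlation of the nuclear with the mitochondrial share was -0.142, -0.118 and -0.101 in PrE, 0.0770, 0.168 and 0.0782 in TE, and -0.0198, -0.0336 and -0.0696 in epiblast. Barcodes of a state share a library, and the 2 shares come from the same total. Barcodes within a state spread widely. In TE of Type II the middle 80% of barcodes ran from 13520 to 31717 nuclear-member CPM around a median of 21933, and in PrE of Type II from 19556 to 35811 around 28499, so the states overlap barcode by barcode.

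The 3 types have 1 library each, so they were compared without a test, naming genes at least 1.5-fold apart with 50 CPM or more in 1 library. Few respiratory chain genes met this. mt-Nd4l was lower in Type III than in Type I in all 3 states, with 203 CPM (95% Poisson interval 192.1 to 214.8) against 408 (401.7 to 414.2) in PrE, 154.5 against 301 in TE and 168 against 288 in epiblast. Of the members at 50 CPM or more, it was 1 of 85 in PrE and 1 of 86 in epiblast, with no other member lower there. In TE 2 of 85 were lower, the other being Uqcr11 (195 against 295 CPM). Of all genes at that level 1.55% were lower in PrE, 2.46% in TE and 0.686% in epiblast, so these counts lie near the background. Ndufa3, an accessory subunit of complex I, was lower in PrE of Type II than of Type I, with 127 against 192 CPM. It was 1 of 86 members, beside 0.185% of all genes. Ndufa3 was also lower in Type II in TE (87.0 against 122 CPM) and epiblast (84.5 against 119 CPM), there by less than 1.5-fold. A gene named in 1 state can therefore differ in the others below this limit. In Type III against Type II, mt-Nd6 was lower in PrE (33.4 against 50.5 CPM), as 1 of 86 members beside 1.06%. Atp5g1 was lower in TE (186 against 288 CPM), as 1 of 85 beside 2.83%. In epiblast mt-Atp8 (161 against 104 CPM) and mt-Nd3 (1247 against 777 CPM) were higher, 2 of 86 beside 1.20%. The levels of mt-Nd4l, mt-Nd3 and Atp5g1 are uncertain, because windows of their transcript ends also occur in other transcripts. Over all members the median log2 ratio of Type III to Type I was -0.17 in PrE, -0.28 in TE and -0.12 in epiblast, against 0.04, 0.06 and -0.0042 for all genes. Intervals cover counting error only.

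Other mitochondrial genes did not all follow the subunits. Complex II and cytochrome c genes, which complete the chain, were lower in TE than in epiblast in 7 of 7 cases (median -0.70), beside 28.3% of all genes. They were higher in PrE than in TE in 6 of 7, beside 30.9%. In PrE over epiblast 2 were higher and 4 lower (median -0.43), beside 38.2% and 36.1%. The exception in PrE over TE was Cyct, the testis form of cytochrome c. Cyct fell by 4.91 in PrE and 2.85 in TE against epiblast on the log2 scale, from 14.0, 13.8 and 12.0 CPM in epiblast to 0.397, 0.520 and 0.651 CPM in PrE. Sdhd, a membrane anchor of complex II, was higher in PrE by 0.40 over epiblast and 0.82 over TE. Of 78 mitochondrial ribosome genes, whose products translate the mitochondrial transcripts, 47 were lower and 8 higher in PrE than in epiblast (median -0.27), and 53 were lower and 2 higher in TE (median -0.34). Of all genes, 36.1% were lower and 38.2% higher in PrE, and 28.3% and 30.8% in TE. Mrps18a went against the majority of its group, with 124, 120 and 133 CPM in PrE and 53.5, 52.2 and 57.2 CPM in epiblast, a log2 change of 1.07.

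Genes for mitochondrial DNA and RNA upkeep were lower in PrE than in epiblast in 19 of 32 cases and higher in 4, beside 36.1% and 38.2% of all genes, which are also the shares to set beside the other groups in this comparison. Prorp, a nuclease that processes mitochondrial transfer RNAs, had 8.68, 8.27 and 5.53 CPM in PrE and 26.05, 28.55 and 24.77 CPM in epiblast (-1.89), while Top1mt, the mitochondrial topoisomerase, was higher in PrE by 1.68. Assembly factors were divided, with 18 of 50 higher and 19 lower in PrE than in epiblast, where 38.2% and 36.1% of all genes were called, so these counts lie near the background. In TE 5 were higher and 23 lower, beside 30.8% and 28.3%. Cmc1, which assists complex IV assembly, was higher in PrE by 0.99 over epiblast, and Nubpl, which delivers iron-sulfur clusters to complex I, was lower by 1.07 on the log2 scale. Import and outer membrane genes had 8 higher and 13 lower of 31 in PrE over epiblast. There Timm8b was higher by 0.85 and Tomm7 lower by 1.09 on the log2 scale. TCA cycle genes had 4 higher and 5 lower of 17, among them the mitochondrial isocitrate dehydrogenase Idh2 (0.65) and Pdhb of pyruvate dehydrogenase (-0.77). Of 11 regulators of mitochondrial biogenesis, 4 were higher and 5 lower in PrE than in epiblast, with Ppargc1b, a coactivator, higher by 1.11 in PrE and 1.59 in TE. Cytosolic ribosomal protein genes were lower in 82 of 83 cases in PrE and in 83 of 83 in TE than in epiblast, with medians of -0.65 and -0.63. Of all genes, 36.1% and 28.3% were lower in these comparisons. In PrE over TE 9 were higher and 16 lower, beside 30.9% and 29.8% of all genes.

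**Figure D4:**
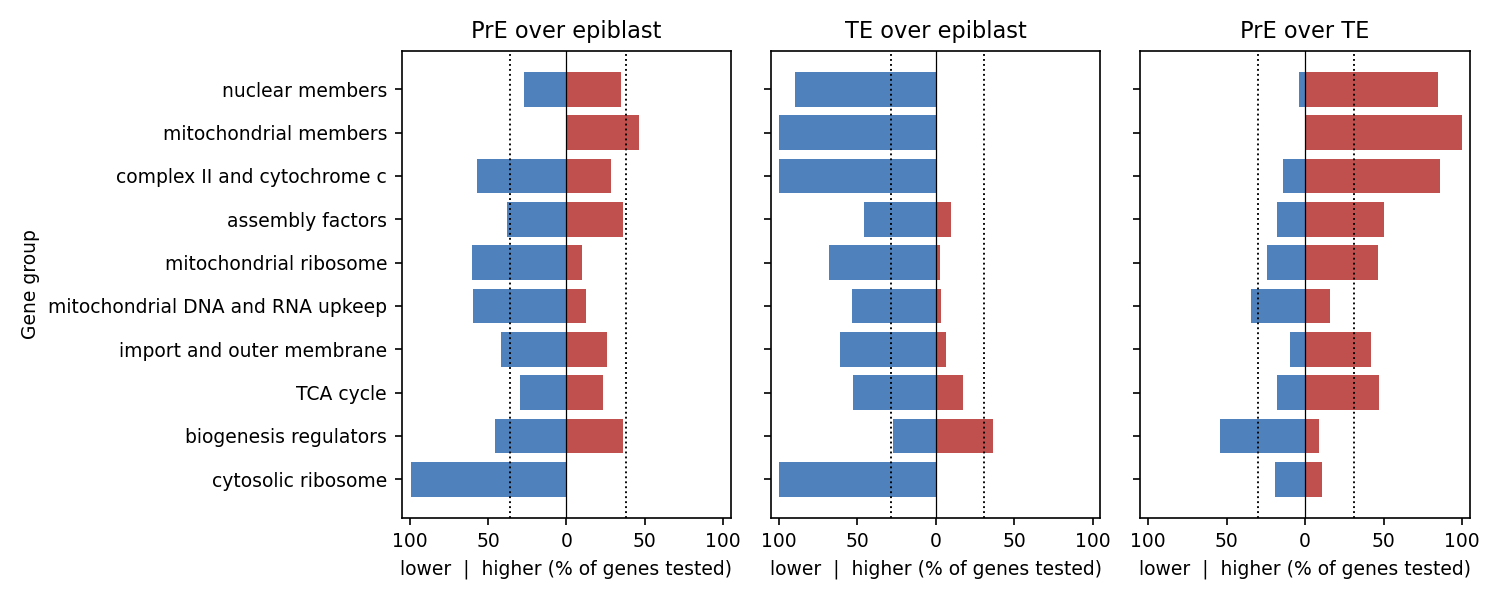
Percentage of the genes tested in each group that were called higher (right, red) or lower (left, blue) in each comparison, with dotted lines at the percentages for all genes. Nuclear and mitochondrial subunits are nearly all lower in TE than in epiblast (83 of 91) and higher in PrE than in TE (79 of 91), while the mitochondrial ribosome has 47 of 78 lower in PrE than in epiblast.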

How the data were processed

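Transcripts were counted at the 3′ end in 3 10x Genomics libraries of dissociated blastoids. The authors deposited UMI counts as 1 matrix per library. The file headers name Cell Ranger 6.0.1, and the submitters' processing notes name build mm10. The rule for calling cells among barcodes was not given. No doublet caller was run.

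Counts were summed per library and state into 9 sums. They were tested with edgeR 4.0.16 (R 4.3.3) by the quasi-likelihood test, with library as a block, TMM scaling, filterByExpr and p-values adjusted by Benjamini-Hochberg over all 13502 genes, called at 0.05. The 3 states of a library come from the same cells' suspension, which is why the library is the block. SE is the absolute log2 change divided by the square root of the quasi-F value. DESeq2 1.42.0 was run as an alternative. Others were library totals, no filter, no block, each library left out, other limits on UMIs (20000), mitochondrial share (10%) and endoderm factor UMIs (3), barcodes thinned to 10000 UMIs or meeting 1 rule only, and barcodes above the 95th percentile of UMIs left out. Leaving out barcodes shared between libraries was added after seeing the data. CPM are not per length, so genes are not ranked by level.

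Named genes are the 13 mitochondrial genes, the called gene with the largest rise and fall in each complex and comparison, the isoform families, called genes against the majority of their complex, and the largest rise and fall in each other list. Ndufa7, Ndufb5, Uqcr11, Uqcrc2 and Uqcrfs1 were named after their values were seen. Genes that differ between types were named by a fold of 1.5. The genes and lists were chosen with earlier results of these data known. Transcript ends (the last 300 bases in GENCODE vM21) were searched in windows of 50 bases for copies in other genes, and levels are called uncertain where 20% or more of the windows matched, as for 20 of 94 genes searched. Some results are not reported here. The scripts were tested on simulated data.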

Additional observations from a re-analysis of the deposited data

Results flagged for a closer look

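Barcodes outside the states also carried respiratory chain transcripts, and no comparison above used them. Among barcodes with at least 10000 UMIs and over 20% mitochondrial UMIs, nuclear members summed to 18394, 20822 and 21051 CPM of nuclear-gene UMIs in Type I, Type II and Type III. The mitochondrial share there was 29.91%, 29.05% and 33.66%, which the filter fixes to be above 20%. These groups held 16, 41 and 25 barcodes.

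Shallow barcodes, with 1000 to under 10000 UMIs and at most 20% mitochondrial UMIs, numbered 3943, 6349 and 966. Their nuclear members summed to 24681, 26439 and 22981 CPM of nuclear-gene UMIs. Their mitochondrial share was 2.453%, 2.974% and 2.645%, below that of every state in the same library. Whether these barcodes are cells of the states was not tested.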

How the results depend on the processing

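In PrE over epiblast, members called higher (33) numbered 53 with library totals, 14 with no replicate block, 18 with barcodes thinned to 10000 UMIs, 19 with barcodes meeting 1 state rule only, 21 without shared barcodes and 13 to 43 with 1 library left out. Members called lower (21) numbered 28 with thinned barcodes, more than those called higher, and ranged from 13 to 24 with 1 library left out. The nuclear median (0.0174) became 0.155 with library totals, -0.0247 with DESeq2 size factors, -0.0258 with DESeq2, 0.104 with no filter, -0.0869 with thinned barcodes, -0.0111 without the deepest 5% and -0.0848 without shared barcodes. The mitochondrial median (0.142) became 0.281 with library totals, 0.23 with no filter, 0.03 with barcodes meeting 1 rule, 0.32 without shared barcodes and 0.0913 to 0.196 with 1 library left out.

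With library totals, TE over epiblast had 3 members higher and medians of -0.223 (nuclear) and -0.119 (mitochondrial), and PrE over TE had 5 lower and medians of 0.397 and 0.448. There, mt-Co1 (0.0318), mt-Atp6 (0.0712), Cox6b1 (0.0423) and Cox7a2l (0.0531) turned positive in TE over epiblast, with none called. Without the replicate block 70 members were lower in TE than in epiblast, and 71 were higher and 2 lower in PrE than in TE. The cause of these shifts was not tested. For the genes named by rule, 469 of the values recomputed under alternatives kept their call status in PrE over TE, 13 lost and 1 gained a call. In PrE over epiblast these were 430, 34 and 19, and in TE over epiblast 416, 30 and 1. Values that were called neither before nor after count as kept, also where their sign changed. Genes of few counts, such as Cox4i2 and Ndufa4l2, have the least depth.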
